A study of Homo sapiens with 12 samples.

Results

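The nuclear pore complex was followed through the genes of 30 of its proteins in synchronized HCT116 cells. A probe set was a candidate when the array's annotation gave it 1 member gene and no other gene. The candidate with the highest mean represented the gene, and it was kept where its log2 signal was at least 5 on at least 2 arrays. All 30 genes were kept, out of 9130 genes that passed the same steps. The annotation lists NUP58 as NUPL1, NUP42 as NUPL2 and NDC1 as TMEM48.

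HCT116 cells come from a human colorectal carcinoma and are an established line. All cells had gone through a double thymidine block of 2 mM, 19 h and then 16 h with 9 h of normal medium between, which stops cells just before DNA replication. After washing they were treated with nocodazole, given in the labels as 0.1 mg/ml, for 7, 8, 9 or 10 h, or with DMSO, the vehicle, for 0, 2, 4 or 6 h or for the same 4 later times. Nocodazole depolymerizes microtubules and holds cells in mitosis. Every one of the 12 conditions was read on a single Affymetrix U133 Plus 2.0 array, so no p below rests on replicates. Within the DMSO arrays, p rests on the spread between neighbouring hours. For nocodazole against DMSO, p rests on how much their difference varied from hour to hour. Each array measured RNA of a whole culture, in which more RNA per cell and a larger share of cells with the RNA cannot be told apart.

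The nuclear pore complex is the channel through which proteins and RNA pass between nucleus and cytoplasm. An outer ring of Y complexes and an inner ring form its scaffold, membrane proteins anchor it, a central channel of phenylalanine-glycine repeat proteins carries the traffic, and filaments and a basket extend from the cytoplasmic and the nuclear side. In animal cells the complex comes apart when cells enter mitosis and is built again at its end, while new pores are also inserted in interphase.

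The arrays differed in their overall level. The median log2 signal over the kept genes as deposited was 9.32, 9.41, 8.88 and 8.76 at 7, 8, 9 and 10 h with nocodazole, against 9.12 to 9.56 on the DMSO arrays. Values are therefore given as deposited, and again after quantile normalization, which gives every array the same distribution of values. The DMSO array at 4 h stood apart in its 18S rRNA probe sets, whose mean was 8.32 there and 3.55 to 4.05 on the other 11 arrays. All 5 epithelial markers passed the filter, with 10.39 to 14.83, and 1 of 6 markers of blood, fibroblasts and endothelium did, COL1A1 with 7.75 to 8.60.

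With DMSO, NUP35, NUP98, RANBP2, RAE1 and NUP153 were higher at 6 to 8 h than at 0 to 4 h on both scales. They belong to the inner ring, the group of the cytoplasmic face and mRNA export, and the nuclear basket. NUP43 of the Y complex and GLE1, an mRNA export factor, were lower at 6 to 8 h, and passed after quantile normalization but not as deposited. None of the other 23 members passed in this window. The median difference over the 30 genes was 0.10 on the log2 scale as deposited, with 22 positive, and -0.05 after quantile normalization, with 12 positive. Over all kept genes the medians were 0.06 and -0.10. A sign of RNA quality moved with the windows: the GAPDH control probe sets' 3′ minus 5′ difference was -0.09 to 0.03 at 6 to 8 h and 0.05 to 0.08 at 0 to 4 h, and that of ACTB was 0.76 to 1.03 at 6 to 8 h and 1.01 to 1.15 at 0 to 4 h. Their part in the member differences was not tested.

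The tests on the 8 DMSO arrays were a curve over all hours and the difference of the means at 6 to 8 h and 0 to 4 h, by limma, and a call needed an adjusted p (Benjamini-Hochberg, over all kept genes) under 0.05. The curve passed for 7 of 30 members as deposited, where 21.8% of all genes passed, and for 10 of 30 after quantile normalization, where 40.1% passed. These shares are near those of all genes. The difference passed for 5 members that were higher and 0 that were lower as deposited, where 5.41% and 0.635% of all genes passed. After quantile normalization it passed for 5 members that were higher and 2 that were lower, where 5.08% and 4.60% passed. At an unadjusted p under 0.05 there were 10 members and 2274 of 9130 genes as deposited, and 13 members and 3055 of 9140 genes after quantile normalization. The calls changed when single arrays were left out. As deposited, the curve passed for 1 member without 0 h (RAE1), where 862 of 9130 genes passed. It passed for 4 without 2 h (1083 genes) and for 4 without 8 h (1323 genes). After quantile normalization it passed for 8 to 10 members with any hour left out, where 2464 to 3802 of 9140 genes passed. For the difference as deposited, 0 members passed without the 2 h, 7 h or 8 h array, and none of the 9130 genes did. NUP35 alone passed without 0 h (134 genes), and NUP35 and RANBP2 passed without 9 h (212 genes) or 10 h (226 genes). Without 4 h, the array with the high 18S signal, the same 5 members passed, and 548 genes did. Without 6 h NUP37 and NUP210 joined them, and 1266 genes passed.

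**Figure D1:**
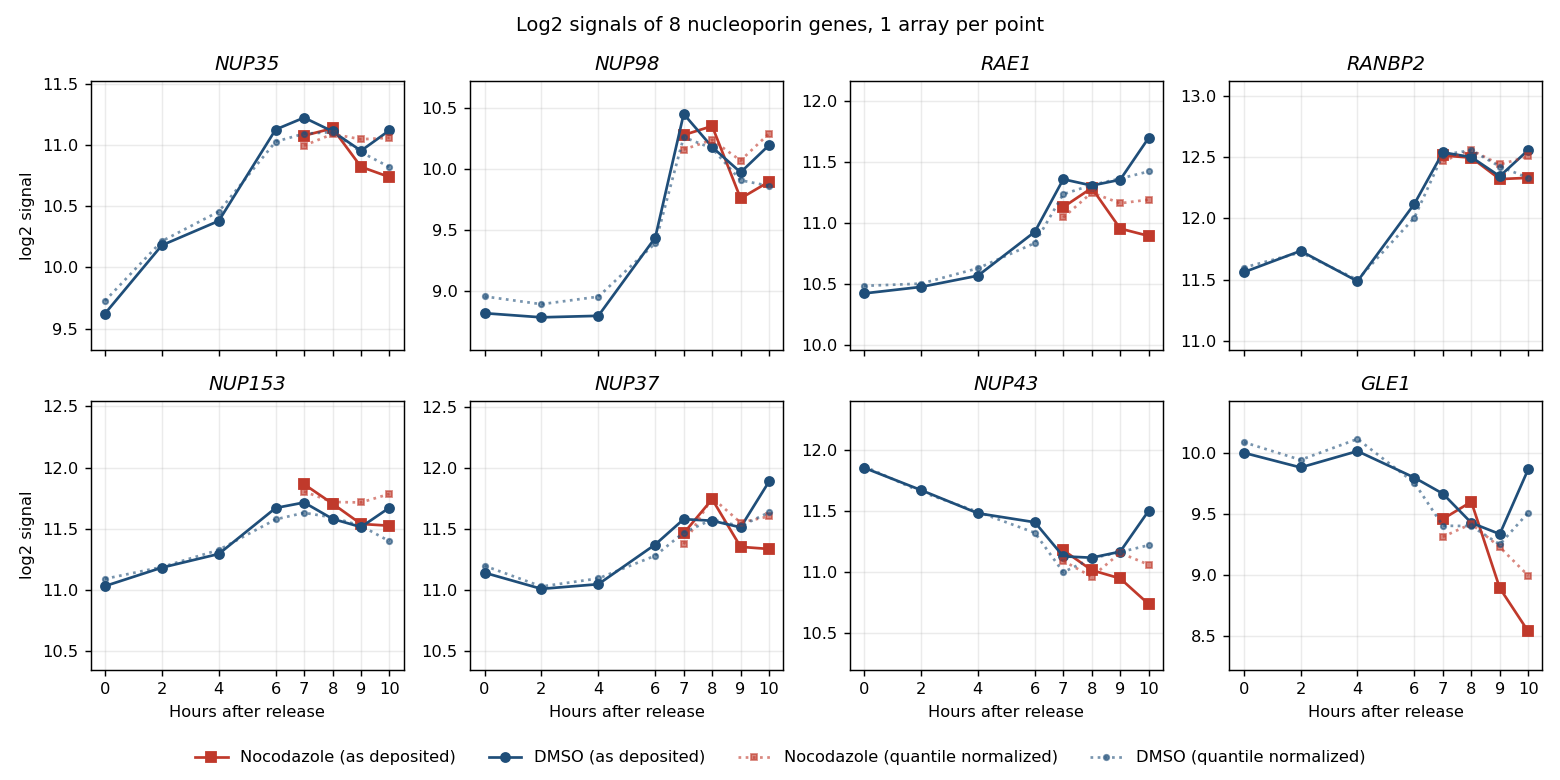
Log2 signal of 8 nucleoporin genes (vertical axes, each spanning the same width) against hours after release, nocodazole in red squares and DMSO in blue circles, 1 array per point, as deposited in full lines and quantile normalized in dotted lines. On the probe set shown, NUP98 stays between 8.79 and 8.82 at 0 to 4 h with DMSO and reaches 10.45 at 7 h. NUP43 runs the other way, with 11.85 at 0 h and 11.12 at 8 h.

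**Figure D2:**
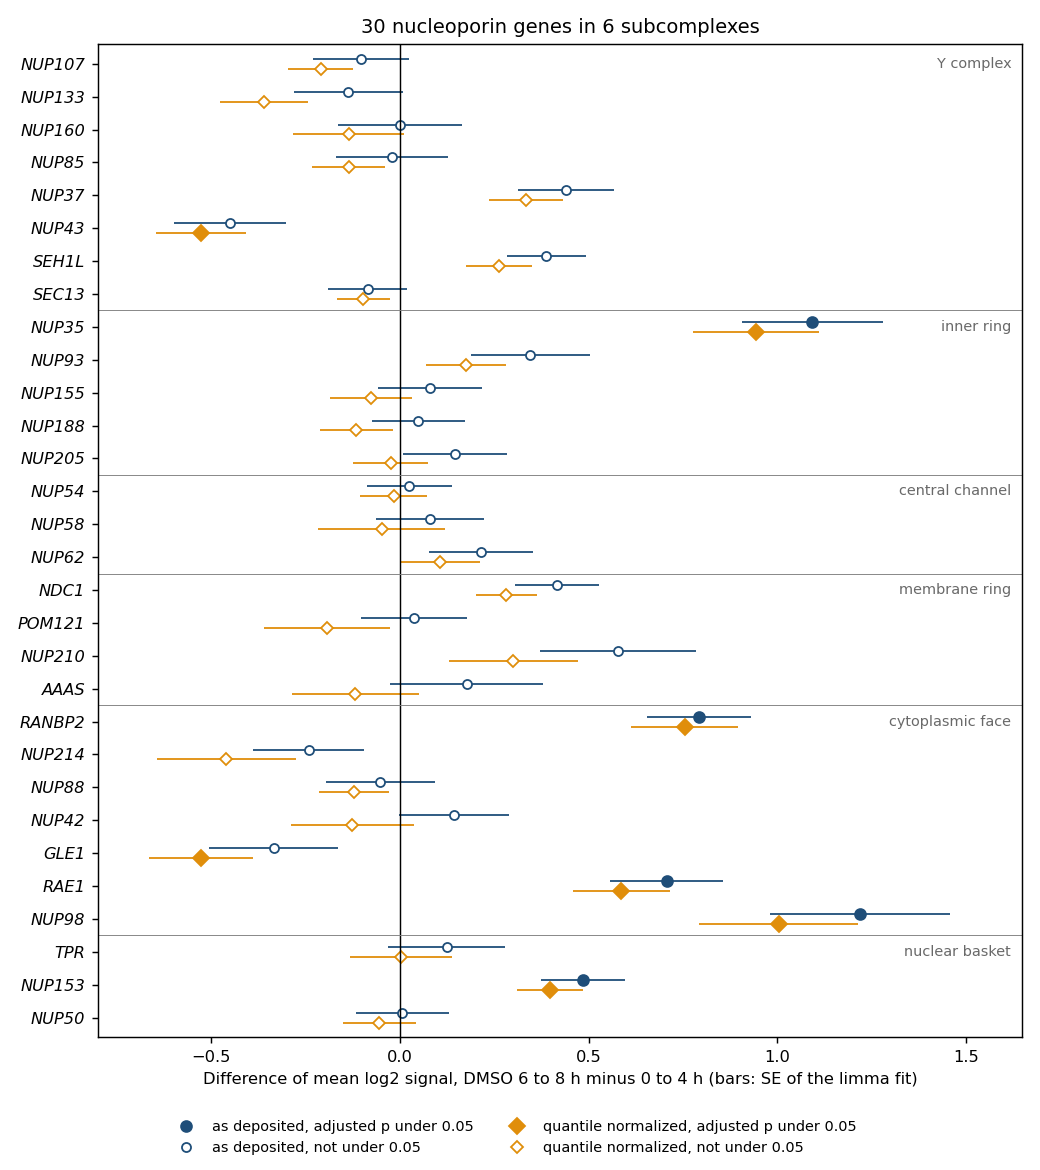
Difference of mean log2 signal at 6 to 8 h minus 0 to 4 h with DMSO (horizontal axis) for the 30 genes by subcomplex, as deposited in blue and quantile normalized in orange. Bars are the SE of the limma fit and filled symbols have an adjusted p under 0.05; the filled symbols on the right are NUP35, RANBP2, RAE1, NUP98 and NUP153 on both scales.

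The promoters of these 5 genes are shown because their RNAs were higher in the same window. Each runs from 250 bases before to 50 bases after the gene's start, 5′ to 3′ on the gene's strand, from RefSeq on GRCh38.p14. Capitals mark TTTGAA, the letters of the cell cycle homology region (CHR) bound by DREAM and MYB-MuvB complexes in late cell cycle genes, and CCAAT, the letters of the NF-Y box, each on either strand (TTCAAA and ATTGG on the other one). No marked match overlaps another.
NUP35 (chr2:183124193-183124492, plus strand): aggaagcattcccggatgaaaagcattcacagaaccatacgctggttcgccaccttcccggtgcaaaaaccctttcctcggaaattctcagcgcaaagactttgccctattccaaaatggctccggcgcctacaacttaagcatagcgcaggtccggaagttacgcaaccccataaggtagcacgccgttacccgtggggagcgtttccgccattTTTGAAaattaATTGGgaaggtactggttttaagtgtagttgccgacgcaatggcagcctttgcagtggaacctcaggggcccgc
NUP98 (chr11:3797497-3797796, minus strand): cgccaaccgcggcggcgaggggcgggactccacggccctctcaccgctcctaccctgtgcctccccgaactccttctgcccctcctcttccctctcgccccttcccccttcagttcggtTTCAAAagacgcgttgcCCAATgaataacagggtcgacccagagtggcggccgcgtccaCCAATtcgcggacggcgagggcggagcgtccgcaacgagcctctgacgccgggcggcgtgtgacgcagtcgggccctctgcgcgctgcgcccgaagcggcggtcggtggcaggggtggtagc
NUP153 (chr6:17706876-17707175, minus strand): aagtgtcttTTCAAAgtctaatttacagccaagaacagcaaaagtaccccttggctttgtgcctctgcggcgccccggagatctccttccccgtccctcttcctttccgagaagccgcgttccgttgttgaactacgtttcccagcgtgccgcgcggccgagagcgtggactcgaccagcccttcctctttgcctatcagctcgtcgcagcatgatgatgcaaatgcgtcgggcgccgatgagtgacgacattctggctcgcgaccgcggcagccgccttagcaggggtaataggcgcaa
RANBP2 (chr2:108719232-108719531, plus strand): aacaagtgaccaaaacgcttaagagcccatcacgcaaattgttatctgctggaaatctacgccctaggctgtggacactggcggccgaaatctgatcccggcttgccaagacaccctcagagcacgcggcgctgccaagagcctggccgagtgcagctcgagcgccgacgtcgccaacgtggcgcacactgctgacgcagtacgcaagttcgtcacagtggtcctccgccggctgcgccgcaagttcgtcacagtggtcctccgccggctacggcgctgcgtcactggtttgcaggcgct
RAE1 (chr20:57351292-57351591, plus strand): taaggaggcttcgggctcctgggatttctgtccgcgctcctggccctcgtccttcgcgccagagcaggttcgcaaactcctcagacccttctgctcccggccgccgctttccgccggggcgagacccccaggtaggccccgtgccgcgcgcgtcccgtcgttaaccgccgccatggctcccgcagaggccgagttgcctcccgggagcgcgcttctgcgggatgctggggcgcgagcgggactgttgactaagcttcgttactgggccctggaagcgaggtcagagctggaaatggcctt

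TTTGAA stood in the window of NUP35, NUP98 and NUP153, 3 of the 5, and of NDC1, NUP205 and NUP37 among the rest, in all 6 of the 28 members with a promoter in the table. Of all 27305 promoters of this length, 15.4% held it. In NUP35 it began at position -35 from the start, and in NUP153 at -241. CCAAT stood in NUP35 and NUP98, in all 11 of 28 members and 35.7% of all promoters. CGGAAG, the core of the sites of ETS factors, left in lower case above, was in 15 of 28 members, in 1 of the 5 (NUP35) and in 19.9% of all promoters. These are matches of letters and no measure of binding.

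The group of the cytoplasmic face and mRNA export held 3 of the 5 genes that were higher. NUP98, a mobile nucleoporin whose gene also encodes the Y complex protein NUP96, had 8.82, 8.79, 8.80, 9.44, 10.45, 10.18, 9.97 and 10.20 on the 8 DMSO arrays in order of time. On this probe set it was flat over the first 4 h, and all later arrays lay above all earlier ones. The difference was 1.22 ± 0.24 (SE of the fit), 2.33-fold, with an adjusted p of 0.0305 by limma, and 1.004 ± 0.21 after quantile normalization (adjusted p = 0.0270). Its range over the DMSO arrays, 1.66, was the widest of the 30 genes as deposited, and its 1.37 was next to the 1.38 of NUP35 after quantile normalization.

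RANBP2, the large cytoplasmic filament protein that binds Ran and acts as a SUMO ligase, had 11.56, 11.73, 11.49, 12.12, 12.54, 12.50, 12.34 and 12.56 on the same arrays. The arrays from 6 h on lay above those at 0 to 4 h. The difference was 0.79 ± 0.14 (adjusted p = 0.0249) as deposited and 0.75 ± 0.14 (0.0233) after quantile normalization. A further probe set of this gene also matches the 7 RGPD genes, its near copies, and was left out. Whether the kept probe sets also pick up RNA of those copies was not tested.

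RAE1 carries mRNA export together with NUP98 and has a further role at the mitotic spindle. Its signal was 10.43, 10.48, 10.57, 10.93, 11.36, 11.31, 11.35 and 11.70 at 0 to 10 h with DMSO. The 10 h array was the highest, and no array at 6 to 8 h reached down to those at 0 to 4 h. The difference was 0.71 ± 0.15 (adjusted p = 0.0360), and 0.59 ± 0.13 (0.0301) after quantile normalization.

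GLE1, which activates the helicase that releases mRNA on the cytoplasmic side, went the other way. It had 10.00, 9.88, 10.01, 9.80, 9.67, 9.43, 9.34 and 9.87 at 0 to 10 h with DMSO. The arrays at 6 to 8 h lay below those at 0 to 4 h, and the 10 h array was near them as deposited, but at 9.51 after quantile normalization, against 9.40 to 9.75 at 6 to 8 h and 9.94 to 10.11 at 0 to 4 h. The difference was -0.33 ± 0.17 as deposited (adjusted p = 0.259) and -0.53 ± 0.14 after quantile normalization (0.0467). The remaining genes of the group, NUP214, NUP88 and NUP42, had differences of -0.24, -0.05 and 0.14 and did not pass on either scale. NUP214, with 5.19 to 5.89 on all arrays, lay close to the filter.

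Of the 5 inner ring genes NUP35 passed. NUP35, a small membrane-binding scaffold protein also known as NUP53, had 9.62, 10.18, 10.38, 11.13, 11.22, 11.11, 10.95 and 11.12 at 0 to 10 h with DMSO. It was lowest at 0 h and highest at 7 h, and the curve gave the smallest adjusted p of the 30 genes, 0.00365 as deposited and 0.000161 after quantile normalization. The difference at 6 to 8 h was 1.09 ± 0.19, 2.13-fold (adjusted p = 0.0244), and 0.94 ± 0.17 (0.0199) after quantile normalization. NUP93, NUP155, NUP188 and NUP205, the large scaffold proteins of the ring, had differences between 0.05 and 0.35 as deposited, none of which passed.

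In the Y complex, which forms the outer rings and and goes to kinetochores in mitosis, NUP37 and NUP43 passed as a curve and stood on opposite sides. NUP37 had 11.14, 11.01, 11.05, 11.37, 11.58, 11.57, 11.51 and 11.89 at 0 to 10 h with DMSO. It was higher on every array from 6 h on (curve adjusted p = 0.0240), and the difference at 6 to 8 h was 0.44 ± 0.13 (adjusted p = 0.0784). NUP43 had 11.85, 11.67, 11.48, 11.41, 11.13, 11.12, 11.17 and 11.50. It was highest at 0 h and lowest at 8 h (curve adjusted p = 0.0290), and the difference was -0.45 ± 0.15 as deposited (adjusted p = 0.107) and -0.53 ± 0.12 after quantile normalization (0.0333).

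The other 6 Y complex genes did not pass in this window on either scale. SEH1L, which also serves the GATOR complex, had 0.39 ± 0.10 as deposited (adjusted p = 0.0626). NUP107, NUP133, NUP160, NUP85 and SEC13, the last of which is also a COPII coat protein, lay between -0.14 and 0.00 as deposited, and between -0.36 (NUP133) and -0.10 after quantile normalization. NUP133 passed as a curve after quantile normalization (adjusted p = 0.0406), with its highest value, 9.84, at 2 h and its lowest, 9.26, at 7 h.

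Among the nuclear basket genes NUP153, which binds lamins and import receptors, passed. It had 11.03, 11.18, 11.29, 11.67, 11.71, 11.58, 11.51 and 11.67 at 0 to 10 h with DMSO. The 0 h array was the lowest and the windows did not overlap. The difference was 0.49 ± 0.11 (adjusted p = 0.0414) and 0.40 ± 0.09 (0.0300) after quantile normalization. TPR, the long coiled-coil protein of the basket, and NUP50, a cofactor of import, had 0.12 and 0.01.

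On the probe sets used for the genes, the central channel and the membrane ring had no call in this window. With averaged probe sets as deposited NDC1 passed, where 746 of 9130 genes did. NUP54, NUP58 and NUP62, the repeat proteins that fill the channel, had differences of 0.03, 0.08 and 0.21, and NUP54 passed as a curve after quantile normalization alone (adjusted p = 0.0251). In the membrane ring, NDC1, a transmembrane anchor, had 0.42 ± 0.11 (adjusted p = 0.0623). NUP210, the transmembrane protein gp210, had 7.97, 7.78, 7.96, 8.09, 8.90, 8.46, 8.65 and 8.62 at 0 to 10 h with DMSO. Its range of 1.11 was among the 4 widest as deposited but not after quantile normalization, where it was 0.667. As deposited its difference was 0.58 ± 0.21 (adjusted p = 0.128). AAAS, the protein ALADIN that NDC1 holds at the pore, and POM121, which takes part in inserting new pores, had 0.18 and 0.04. POM121, with 5.61 to 5.89 on all arrays, was near the filter. A further probe set matches both POM121 and POM121C and was left out, so POM121 was read on this weak probe set alone.

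The hour of the highest DMSO array depended on the scale. As deposited it was 10 h for 16 of the 30 genes and 7 h for 5, and the lowest was 4 h for 10 genes. After quantile normalization the highest array was 0 h for 8 genes, 10 h for 6 and 4 h for 5. The 10 h array had the highest overall level of the DMSO arrays and the 4 h array the lowest, and their part in these counts was not tested beyond the normalization.

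Other probe sets of the same genes gave a wider spread than the genes did. Of 75 probe sets annotated to 1 member, 56 passed the filter, and 15 genes had more than 1. As deposited, the differences at 6 to 8 h had 1 sign in 9 of these 15 genes and both signs in 6, and after quantile normalization 1 sign in 6 and both in 9. Of the 26 further probe sets, 19 lay above the one used for the gene, or 73.1%, against 64.5% of the 5900 further probe sets of all genes.

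NUP98 was higher at 6 to 8 h on all 3 of its probe sets. The further pair differed by 1.63 and 2.76, and the larger difference came from 5.62, 7.10, 7.39, 9.09, 9.68, 9.63, 9.75 and 9.97 at 0 to 10 h. The smaller came from a probe set with 8.03, 8.30 and 8.63 at 0, 2 and 4 h. Both of the pair thus rose over the first 4 h, where the probe set used was flat. RANBP2 differed by 0.33, 0.79, 1.69 and 1.94 on its 4 probe sets. The windows overlapped on the probe set with 0.33, which was at 0.04 after quantile normalization, and on none of the others. The 1.94 came from a probe set with 4.68 at 4 h, against 6.70 and 6.93 at 0 and 2 h. RAE1 differed by 0.59 and 0.71. NUP35 and NUP153 had 1 probe set each above the filter.

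Some genes without a call had a further probe set with a large difference, in either direction. NUP160, a scaffold subunit of the Y complex, differed by 0.00 and 0.08 on a pair of probe sets and by 1.85 on another, which read 7.06, 7.03, 6.44, 7.94, 8.93, 9.20, 9.00 and 9.45 at 0 to 10 h. NUP50 differed by 0.01, 0.27, 0.70 and 1.12. TPR differed by -0.15, 0.12, 0.27 and 1.04. The largest came from 6.91, 6.80 and 6.90 at 0 to 4 h and 6.49, 8.45 and 8.78 at 6 to 8 h. NUP133 differed by -0.14 and 0.79, or by -0.36 and 0.52 after quantile normalization. Its positive difference came from a probe set near the filter, with a mean of 5.72, on which the windows overlapped. NDC1 differed by 0.42 and 1.04, the larger from 9.69, 9.96, 10.24, 10.73, 11.23, 11.06, 11.08 and 11.34 at 0 to 10 h. On that probe set the windows did not overlap on either scale, and the difference was 0.89 after quantile normalization. NUP62 differed by 0.21 and 0.95, or by 0.11 and 0.74 after quantile normalization. A probe set of NUP210 differed by -0.80, with 6.21, 6.38, 8.07, 6.18, 5.97, 6.10, 6.09 and 6.69 at 0 to 10 h, where the 4 h array, the one with the high 18S signal, stood above all others. A probe set of NUP58 differed by -0.48, with 10.49, 10.34 and 8.78 at 6 to 8 h and 10.27, 10.60 and 10.18 at 0 to 4 h. GLE1 and NUP43, lower on the probe set used, were at 0.34 and 0.30 on their other one as deposited. After quantile normalization these differences were 0.06 and 0.14. The windows overlapped on both of these other probe sets. That of NUP43 was near the filter, with 3.95, 5.53 and 4.97 at 6 to 8 h as deposited. Its signal was too low to decide the direction of NUP43. The direction of GLE1 was that of 1 probe set. Which transcripts each probe set reads was not tested.

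**Figure D3:**
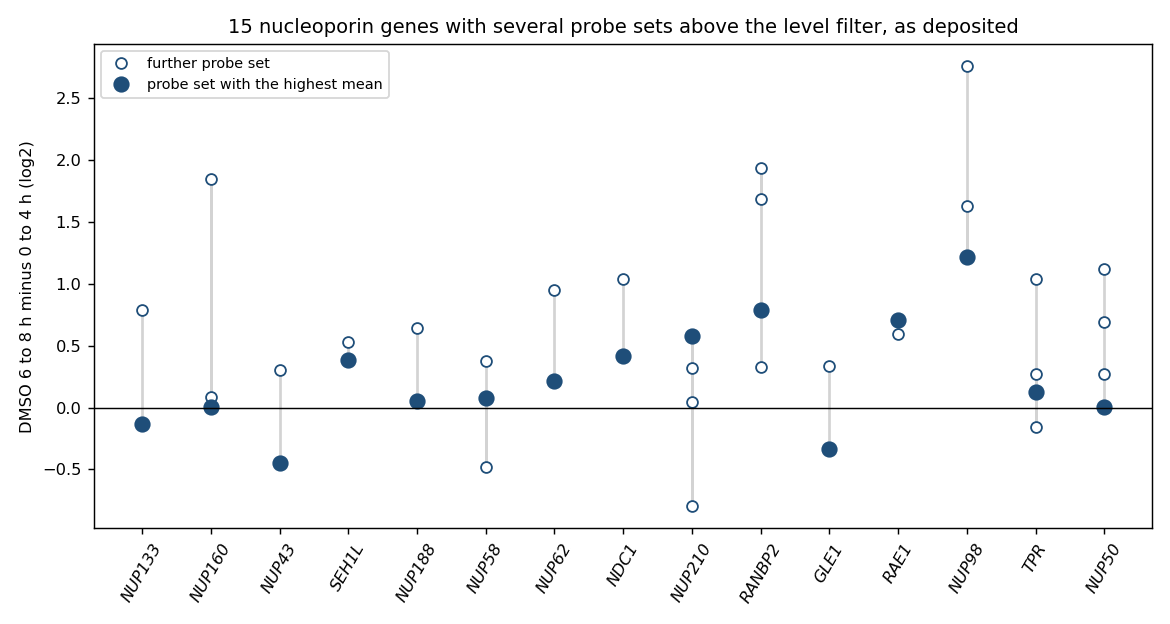
Difference at 6 to 8 h minus 0 to 4 h with DMSO (log2, vertical axis, as deposited) for every probe set above the filter in the 15 genes with several; filled points are the probe set with the highest mean and open points the further ones. NUP98 runs from 1.22 to 2.76 and NUP160 from 0.00 to 1.85, while GLE1 and NUP43 have a point on either side of 0. The NUP43 point above 0 comes from a probe set near the filter.

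From 6 to 8 h to 9 and 10 h with DMSO, no member passed. The cell cycle phase of the cultures at these hours was not tested. limma called 0 of 30 members and 0 of 9130 genes as deposited, with 0 members and 470 genes at an unadjusted p under 0.05, and 0 of 30 and 0 of 9140 after quantile normalization, with 0 and 733. The smallest p as deposited belonged to NUP188, RAE1 and NUP93. NUP188 had 10.37 and 10.70 in the later window, against 10.17, 10.25 and 10.25 in the one before, without overlap. Its difference was 0.31, with a 95% interval of -0.0040 to 0.63 (adjusted p = 0.912). RAE1 differed by 0.33 and NUP93 by 0.27. The median of the 30 genes was 0.11, against 0.04 over all genes. After quantile normalization the smallest p belonged to NUP54, with 11.99 and 11.80 in the later window, against 12.16, 12.08 and 12.08, a difference of -0.21 (95% interval -0.44 to 0.01, adjusted p = 0.623). The medians on that scale were 0.04 for the 30 genes and -0.03 for all genes.

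With nocodazole, the median of the nucleoporin genes as deposited lay close to that of all genes at each hour. After quantile normalization it lay furthest from that of all genes at 7 h. As deposited, nocodazole was lower than DMSO of the same hour for 25, 11, 25 and 27 of the 30 genes at 7, 8, 9 and 10 h, and for 68.0%, 34.9%, 71.7% and 84.2% of all genes. After quantile normalization it was lower for 20, 15, 18 and 13. The medians as deposited were -0.12, 0.04, -0.24 and -0.59, against -0.09, 0.08, -0.25 and -0.61 over all genes. After quantile normalization the medians were -0.09, -0.00085, -0.02 and 0.03, against -0.0003, -0.017, 0.0099 and 0.0035. The shift at 10 h as deposited was thus close to that of all genes, and it was not seen after normalization.

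**Figure D4:**
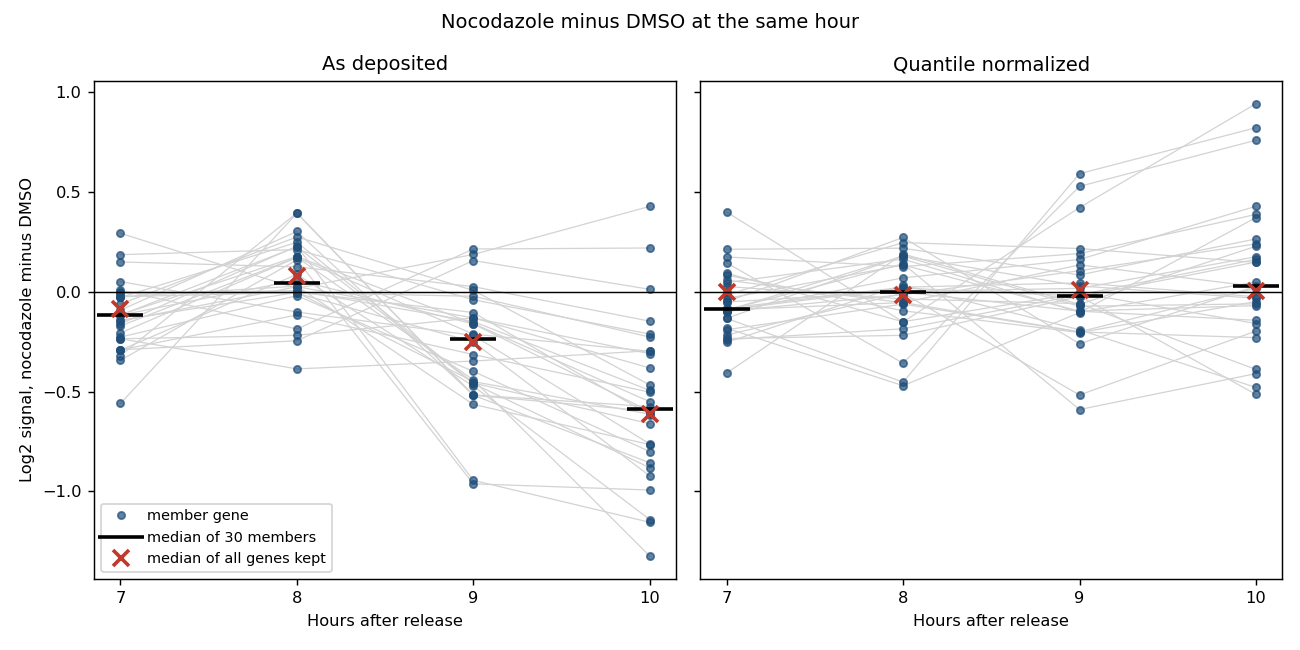
Log2 signal with nocodazole minus DMSO of the same hour (vertical axis) at 7, 8, 9 and 10 h for the 30 genes, as deposited on the left and quantile normalized on the right. Grey lines join a gene's values, black bars are the median of the 30 genes and red crosses that of all kept genes; at 10 h both lie near -0.6 on the left and near 0 on the right.

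Over 7 to 10 h, with the hour as a block, no member passed. limma called 0 of 30 members and 0 of 9130 genes as deposited, with 1 member and 953 genes at an unadjusted p under 0.05. After quantile normalization it called 0 of 30 members, with 4 members and 1621 of 9140 genes at an unadjusted p under 0.05, where 0.252% of all genes were called higher and 0.142% lower. The genes that were higher at 6 to 8 h in the DMSO course showed no call with nocodazole either. NUP35 had 11.08, 11.14, 10.82 and 10.74 with nocodazole, against 11.22, 11.11, 10.95 and 11.12 with DMSO at 7, 8, 9 and 10 h, and NUP98 had 10.28, 10.35, 9.76 and 9.90, against 10.45, 10.18, 9.97 and 10.20. Both pairs of ranges overlapped.

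The smallest p as deposited belonged to NUP58, RAE1 and NUP133. NUP58 had 10.58, 10.65, 10.72 and 10.54 with nocodazole, against 10.82, 11.04, 11.07 and 10.83 with DMSO. The groups did not overlap, and the difference was -0.32 (95% interval -0.63 to -0.0012, adjusted p = 0.386), or -0.10 after quantile normalization. RAE1 had 11.13, 11.29, 10.96 and 10.90 with nocodazole, against 11.36, 11.31, 11.35 and 11.70 with DMSO, lower at each hour. Its difference was -0.36 (95% interval -0.74 to 0.02) and -0.17 after quantile normalization (-0.31 to -0.03, adjusted p = 0.251). NUP133 differed by -0.54 and -0.23. On the further RAE1 probe set above the filter, nocodazole was higher at 8 h, with 11.05 against 10.99 as deposited, and lower at the other hours. On a further NUP58 probe set the groups overlapped as deposited, with 9.73 for nocodazole against 8.81 for DMSO at 9 h. On another NUP58 probe set they did not overlap as deposited.

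After quantile normalization the smallest p belonged to 2 basket genes, NUP50 and NUP153, and these lay on the other side. NUP50 had 11.84, 11.88, 11.82 and 11.92 with nocodazole, against 11.63, 11.66, 11.73 and 11.65 with DMSO. NUP153 had 11.80, 11.72, 11.71 and 11.78 with nocodazole, against 11.63, 11.59, 11.52 and 11.40 with DMSO. Neither pair overlapped, and the differences were 0.19 and 0.22 (adjusted p = 0.198 for both). As deposited they were 0.04 and 0.04. On each further NUP50 probe set above the filter, nocodazole and DMSO overlapped after quantile normalization. The brightest had 11.19, 11.05, 11.21 and 11.08 with nocodazole, against 10.95, 11.07, 11.03 and 10.71 with DMSO. The next had 11.22, 11.24, 11.18 and 11.05 with nocodazole, against 11.20, 11.26, 11.24 and 11.05.

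The nocodazole difference changed with time for 1 member on each scale, and not for the same one. The change is the difference at 9 and 10 h minus that at 7 and 8 h. As deposited, 1 of 30 members was called lower and 0 higher, where 10.3% of all genes were called lower and 1.99% higher. After quantile normalization, 1 was called higher and 0 lower, where 4.05% and 3.73% were. As deposited the median change was -0.37 for the members and -0.44 for all genes, and after quantile normalization -0.03 and 0.0097.

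NUP155, an inner ring scaffold protein, had 10.29, 10.45, 9.58 and 9.55 with nocodazole, against 10.45, 10.22, 10.53 and 10.70 with DMSO at 7, 8, 9 and 10 h. The nocodazole arrays at 9 and 10 h lay below all others. The difference was -1.05 at 9 and 10 h and 0.03 at 7 and 8 h, a change of -1.08 ± 0.28 (adjusted p = 0.0273). After quantile normalization it had 10.17, 10.34, 9.89 and 9.97 with nocodazole, against 10.27, 10.21, 10.48 and 10.38 with DMSO, a change of -0.52 ± 0.15 (adjusted p = 0.0663). No member passed as deposited without the 7 h or the 8 h arrays, and 18 passed without those at 9 h, where the change rested on 10 h alone and 4047 of 9130 genes passed. After quantile normalization NUP155 passed without the 10 h arrays, where 506 of 9140 genes did.

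NUP42, a partner of GLE1 in mRNA export, had 8.28, 8.42, 9.20 and 9.19 with nocodazole after quantile normalization, against 8.41, 8.87, 8.61 and 8.37 with DMSO. It was lower at 7 and 8 h and higher at 9 and 10 h, a change of 0.999 ± 0.23 (adjusted p = 0.0393). As deposited it had 8.45, 8.67, 8.86 and 8.75 with nocodazole, against 8.74, 8.91, 8.71 and 8.74 with DMSO, and the change was 0.35 (adjusted p = 0.434). After quantile normalization too, no member passed without the 7 h or the 8 h arrays, and NUP42 did not pass without those at 10 h. NUP133 (-0.89, adjusted p = 0.0754) and TPR (-0.65, 0.0906) had the next smallest p as deposited. NUP133 had 9.20, 9.52, 8.50 and 8.76 with nocodazole, against 9.54, 9.36, 9.46 and 9.75 with DMSO.

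Genes of the carriers that pass through the pore were also called in the DMSO course. Of 31 import receptors, export receptors and Ran cycle genes, 28 were kept, and 3 were higher and 0 lower at 6 to 8 h than at 0 to 4 h as deposited, where 5.41% and 0.635% of all genes were. These were XPO5, the exporter of microRNA precursors (0.96, adjusted p = 0.0289), RCC1, the exchange factor of Ran (0.51, 0.0371), and KPNA4, an importin alpha (0.40, 0.0380). After quantile normalization RAN and XPO6 joined them, 5 higher and 0 lower, where 5.08% and 4.60% of all genes were. The median of the 28 genes was 0.24 as deposited and 0.18 after quantile normalization, against 0.06 and -0.10 over all genes. Of the further nucleoporins listed, 2 of 3 were kept, and AHCTF1, the ELYS protein that seeds pores on chromatin, and POM121C both passed as a curve on both scales, where 21.8% and 40.1% of all genes did. AHCTF1 had 10.62, 10.54, 10.86, 10.85, 11.37, 11.55, 11.43 and 11.46 at 0 to 10 h with DMSO, highest at 8 h.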

How the data were processed

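RNA of 12 cultures was hybridised to Affymetrix U133 Plus 2.0 arrays. The authors deposited a log2 value for each probe set, made with GC-RMA, whose version is not given in the sources used here. That the logarithm has base 2 follows from the span of the values. Of the table, 12 columns of arrays were used and 0 belonged to other samples. Of 54675 probe sets, 41097 had 1 gene symbol in the array's annotation. Those with a log2 signal of at least 5 on at least 2 arrays, 15030 probe sets, were kept, which gave 9130 genes (9140 after quantile normalization over all probe sets).

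Tests were run in limma 3.58.1 (R 4.3.3), using a variance prior that follows intensity and Benjamini-Hochberg adjustment over all kept genes. The DMSO course was fitted with a natural cubic spline with 3 degrees of freedom. Windows (0, 2 and 4 h, 6, 7 and 8 h, 9 and 10 h) were compared by means, nocodazole with DMSO at 7 to 10 h with hour as a block, and its change by an interaction. Groups came from the sample labels, which give no replicates, and the number of arrays limits the precision. For the DMSO course and windows, p-values rest on the spread between hours. For nocodazole they rest on how much the difference from DMSO varied between hours. The fits were tested on simulated data. The members and lists were chosen with earlier results of these data known.

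Named in full were members that passed, at most 8 a comparison, the 3 with the smallest p where fewer passed, and the 4 with the widest DMSO range. Alternatives were quantile normalization, no filter, a filter at 7, averaged probe sets, a prior without trend, narrower windows, a spline of 2 degrees of freedom, no hour block and leaving out each hour. Leaving out an hour after quantile normalization was added after seeing the data. Tables and plots were made with Python 3.11.15, pandas 2.3.3 and matplotlib 3.10.9. Promoters came from RefSeq on GRCh38.p14.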

Additional observations from a re-analysis of the deposited data

Results flagged for a closer look

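NUP155 and NUP42 are listed because the nocodazole difference itself differed between 9 and 10 h and 7 and 8 h by the limma interaction. For NUP155 the change was -1.08 as deposited, and for NUP42 it was 0.999 after quantile normalization. With all hours used neither passed on the other scale. After quantile normalization without the 10 h arrays NUP155 passed and NUP42 did not, and no member passed without the 7 h or the 8 h arrays on either scale.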

How the results depend on the processing

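The number of members called in the DMSO course was 7, and 1 to 7 with an hour left out. It was 1 without 0 h (RAE1, with 862 of 9130 genes called), 4 without 2 h (1083) and 4 without 8 h (1323). With averaged probe sets it was 12 (2294 of 9130). After quantile normalization it was 8 to 10 with an hour left out (2464 to 3802 of 9140). For 6 to 8 h minus 0 to 4 h it was 5, and 0 without the filter (65 of 19775). With an hour left out it was 0 to 7 (0 to 1266 of 9130), and 0 to 10 after quantile normalization. In that last setting it was 0 without 2, 7 or 8 h (0 of 9140 genes), 1 without 9 h (195) and 1 without 10 h (194). It was 2 without 0 h (331) and 10 without 6 h (2485). For the change of the nocodazole difference it was 1, and 2 without the filter (10073 of 19775 genes called), 4 with the filter at 7 (1742 of 7712), 2 with the mean of probe sets (1714 of 9130), 0 without the intensity trend (784 of 9130) and 0 to 18 with an hour left out, the 18 without 9 h (4047 of 9130). After quantile normalization and with an hour left out it was 0 to 3. No member passed at 9 and 10 h minus 6 to 8 h or for nocodazole at 7 to 10 h under any alternative run. GLE1 at 6 to 8 h minus 0 to 4 h turned to 0.0014 with the mean of probe sets, and NUP58 with nocodazole to 0.028 after quantile normalization without 8 h. Of the other values of single genes, 376 kept their direction and side of the threshold, 87 fell short of it and 22 newly passed. The causes were not tested. Nocodazole and DMSO arrays were paired by hour, and without that block 0 members and 8 of 9130 genes passed. The labels give no replicate numbers. With 1 array a condition, no value has a replicate check, and genes near the filter (POM121, NUP214) have little signal.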
